A study of Mus musculus with 12 samples.

Results

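T cells and cytotoxic lymphocytes in the hearts of NOTCH2NLC-(GGC)98 transgenic mice were followed through 10 marker genes, Cd3d, Cd3e, Cd3g, Cd4, Cd8a, Cd2, Lck, Gzma, Gzmb and Nkg7. The genes were taken by symbol from a count table of 25171 loci, and all 10 were found there. RNA was sequenced from 12 hearts, with 3 mice in each of 4 groups, and all groups carried a conditional NOTCH2NLC transgene with 98 GGC repeats behind a loxP-flanked stop at Rosa26. EIIa-tg mice also carried EIIa-Cre, which deletes the stop throughout the body. Conditional transgenic mice without Cre served as EIIa-ctl, and both were collected at day 30. Mice labelled Myh6-tg were described as carrying Myh6-creERT2, which makes an inducible Cre in cardiomyocytes, and received 3 intraperitoneal injections of 75 mg/kg tamoxifen from day 60. Myh6-ctl mice were littermates that received corn oil, and their genotype label is the same as that of the Myh6-tg mice. Both Myh6 groups were collected at day 90, so age, Cre line and injection cannot be told apart between the EIIa and the Myh6 hearts. By these labels tamoxifen was given to the Myh6-tg mice only. Effects of tamoxifen, of active Cre and of the transgene thus cannot be told apart within the Myh6 comparison.

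T cells recognise peptides through the T cell receptor, which signals through the CD3 chains encoded by Cd3d, Cd3e and Cd3g. The coreceptors Cd4 and Cd8a bring the kinase Lck to this complex, and Cd2 is an adhesion receptor of T cells and NK cells. Gzma and Gzmb encode granzymes, proteases that cytotoxic T cells and NK cells release into target cells, and Nkg7 encodes a protein of their granule membranes. In a healthy heart these cells are a small minority beside cardiomyocytes, endothelial cells, fibroblasts and macrophages.

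With all hearts included, none of the 10 genes passed the test of edgeR or DESeq2 in any of the 4 comparisons. Of all genes tested, edgeR called 17% in the EIIa and 18.3% in the Myh6 comparison. It called 3.92% for the difference between models and 0.0334% between the controls. All had low levels: between 25.8% and 39.8% of the 20798 detected genes had a lower mean than each of them. The 10 genes together took between 117 and 522 counts per heart, and 14 of the 120 values of a gene in a heart were 0. The pattern closest to the threshold was that of Gzma. It was higher in every EIIa-tg heart than in every EIIa-ctl heart, as were 20.3% of all genes tested. It was lower in every heart labelled Myh6-tg than in every heart labelled Myh6-ctl, as were 19.6% of all genes tested. The Esr1 values given further on do not match these 2 Myh6 labels.

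The promoters of the granzyme pair, whose levels followed each other most closely, and of Cd3d and Cd3g, the pair with the next highest correlation, are shown as the 150 bases before the RefSeq start (GRCm38.p6), 5′ to 3′ on the strand of the gene. Capitals mark the RUNX core (TGTGGT or, on the other strand, ACCACA), the ETS core (GGAAG or CTTCC) and the GATA core (AGATAA or TTATCT), short motifs bound by factor families with known roles in T cells.
Gzma, chr13:113100982-113101131, minus strand: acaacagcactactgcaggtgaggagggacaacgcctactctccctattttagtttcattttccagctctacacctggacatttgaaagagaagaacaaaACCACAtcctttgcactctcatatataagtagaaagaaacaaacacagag
Gzmb, chr14:56262335-56262484, minus strand: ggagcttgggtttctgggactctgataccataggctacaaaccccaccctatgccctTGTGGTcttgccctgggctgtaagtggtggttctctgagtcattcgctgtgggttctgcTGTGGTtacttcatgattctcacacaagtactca
Cd3d, chr9:44981636-44981785, plus strand: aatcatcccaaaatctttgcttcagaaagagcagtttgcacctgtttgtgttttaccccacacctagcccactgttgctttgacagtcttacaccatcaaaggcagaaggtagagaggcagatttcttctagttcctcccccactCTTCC
Cd3g, chr9:44980432-44980581, minus strand: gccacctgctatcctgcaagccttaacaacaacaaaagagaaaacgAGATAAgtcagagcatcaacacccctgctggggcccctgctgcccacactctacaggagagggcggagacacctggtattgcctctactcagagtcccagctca
The Gzma window held 1 RUNX core and the Gzmb window 2, on either strand, and 8.4% of 32851 promoter windows of this length held at least 1. The Cd3d window held 1 ETS core, which 47.7% of all windows held, and the Cd3g window held 1 GATA core, which 5.65% of all windows held. The 3 motifs did not overlap each other in these windows. RefSeq sequences were found for 8 of the 10 genes, the others being Cd4 and Cd2.

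In GENCODE M21 (GRCm38) all 10 genes are protein-coding. The CD3 genes lie together on chromosome 9, with Cd3g (44969572 to 44980431, minus strand) and Cd3d (44981786 to 44987339, plus strand) starting 1355 bases apart in opposite directions and Cd3e (44998740 to 45009627, minus strand) nearby. Exons of Cd3e share 135 bases with the antisense gene Gm48719, which was not analysed here, so reads of the 2 genes there could not be told apart unless the counting used strand. Gzma (chromosome 13, 113093825 to 113100981) and Gzmb (chromosome 14, 56258838 to 56262260) are on different chromosomes.

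Each heart had between 38343106 and 50969834 counts, and 3 counts, the floor used here, correspond to 0.0589 to 0.0782 CPM (counts scaled to the library total). Both mates of a read pair may have been counted, since between 76.8% and 83.0% of the values of 1 or 2 in a heart were 2, so small counts may stand for fewer molecules than their number. Replicates of a group all differed by more than sampling noise. Cardiomyocyte markers were high, with lower group means in the transgenic hearts. The 8 genes summed to 39521 to 48024 CPM in the EIIa-ctl and 19997 to 34846 in the EIIa-tg hearts. In the Myh6-ctl hearts the sum was 31234 to 41254 and in the Myh6-tg hearts 9202 to 32089, so these groups overlapped. Brain markers summed to 10.95 to 45.1 CPM. Mitochondrial (mt-) genes took 34.2% to 36.7% of the counts in the EIIa-ctl and 28.5% to 32.3% in the EIIa-tg hearts, against 31.8% to 38.3% in the Myh6-ctl and 15.5% to 18.6% in the Myh6-tg hearts. The part of the cardiomyocyte levels in the results was not tested. Replicate 1 of each group had between 4224 and 7307 Y-linked counts and the other hearts at most 2, so each group held the same mix of sexes. Esr1, the estrogen receptor gene, part of which is built into tamoxifen-inducible Cre, was at 1030 to 2330 CPM in the Myh6-ctl hearts and at or below 2.52 CPM in all others, Myh6-tg hearts included. This goes against the labels, which give the Myh6-tg hearts the same genotype. Groups are named here by their titles, so that Myh6-ctl and Myh6-tg mean the hearts so labelled. If the 2 labels were exchanged, every Myh6 difference given here would have the opposite sign, and the values that join the Myh6 with the EIIa hearts would change as well. The genotype labels of EIIa-tg replicates 2 and 3 also differ from that of replicate 1. Fewer lymphocytes and less RNA per lymphocyte cannot be told apart in such bulk samples.

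**Figure D1:**
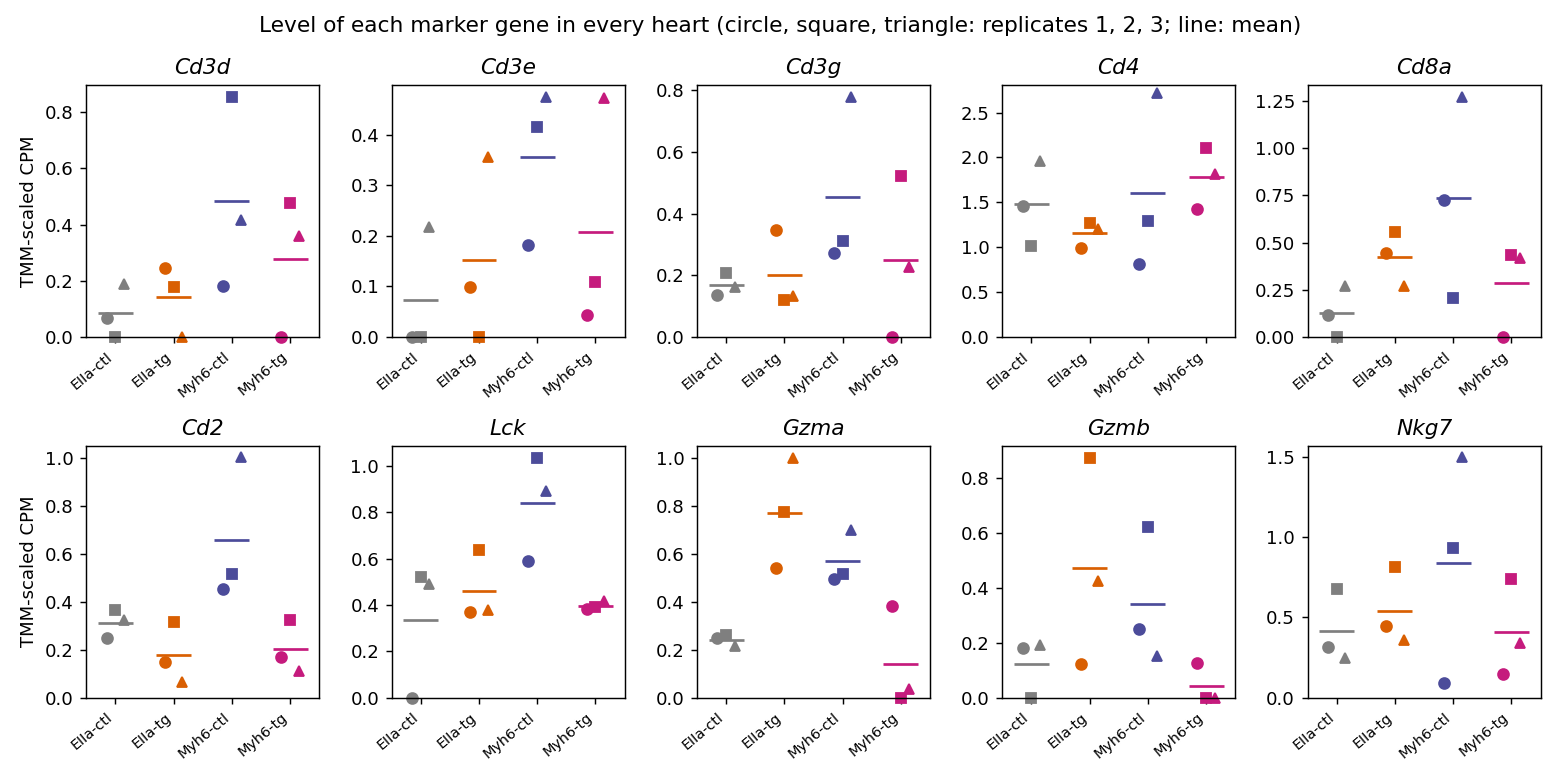
Level of each marker gene in every heart, in CPM after TMM scaling (vertical axes, each starting at 0), by group. Symbols stand for replicates 1, 2 and 3 and lines for group means. Gzma does not overlap between control and transgenic hearts in either model, and Myh6-ctl replicate 3 is the highest heart for Cd4, Cd8a, Cd2, Cd3e, Cd3g and Nkg7.

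The CD3 chains were the sparsest group. Cd3d had 3, 0 and 7 counts in EIIa-ctl replicates 1 to 3 and 10, 9 and 0 in EIIa-tg hearts, against 8, 33 and 22 in the Myh6-ctl and 0, 22 and 19 in the Myh6-tg hearts. Cd3e had 0, 0 and 8 counts in the EIIa-ctl and 4, 0 and 16 in the EIIa-tg hearts, against 8, 16 and 25 in the Myh6-ctl and 2, 5 and 25 in the Myh6-tg hearts. Cd3g had 6, 8 and 6 counts in the EIIa-ctl and 14, 6 and 6 in the EIIa-tg hearts, against 12, 12 and 41 in the Myh6-ctl and 0, 24 and 12 in the Myh6-tg hearts. The Myh6-tg hearts did not behave alike: replicate 1 had 2 counts over the 3 genes, the fewest of any heart, whereas replicates 2 and 3 had 51 and 56, within the range of 28 to 88 in Myh6-ctl hearts. Control and transgenic hearts overlapped for all 3 genes in both models.

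In the EIIa hearts the CD3 genes were below the filter on low counts and were compared one by one. The two-sided exact permutation p was 0.8 for Cd3d, 0.7 for Cd3e and 1 for Cd3g, where 3 against 3 hearts cannot go below 0.1. In the Myh6 hearts the fitted log2 differences of transgenic against control hearts were -0.78 for Cd3d (adjusted p = 0.686), -0.76 for Cd3e (adjusted p = 0.622) and -0.86 for Cd3g (adjusted p = 0.646, edgeR). Their 95% intervals were wide, that of Cd3d reaching from -3.50 to 1.94, so neither a several-fold fall nor a several-fold rise lay outside them.

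Cd4 was the most abundant of the 10 genes by counts. It had 64, 39 and 72 counts in the EIIa-ctl and 40, 64 and 54 in the EIIa-tg hearts, against 36, 50 and 143 in the Myh6-ctl and 67, 97 and 96 in the Myh6-tg hearts, and no heart was at 0. Per length, Cd4 was at 0.219 to 0.889 FPKM, above Cd8a and Cd3e in all 12 hearts, above Cd3d in 11 and above Cd3g in 10. In Myh6-tg replicate 1, where the CD3 genes together had 2 counts, Cd4 had 67. Some macrophages and dendritic cells also make Cd4 RNA, and the 12 macrophage genes measured summed to between 523 and 2574 CPM per heart. The share of Cd4 counts from such cells was not tested.

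Cd4 did not pass the test in either model. The log2 difference was -0.36 in EIIa-tg hearts (95% interval -1.18 to 0.47, adjusted p = 0.522, edgeR) and 0.15 in Myh6-tg hearts (-1.05 to 1.34, adjusted p = 0.873). Its groups overlapped in both models.

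Cd8a, the coreceptor of cytotoxic T cells, had 5, 0 and 10 counts in the EIIa-ctl and 18, 28 and 12 in the EIIa-tg hearts, against 32, 8 and 67 in the Myh6-ctl and 0, 20 and 22 in the Myh6-tg hearts. Every EIIa-tg heart had more counts than every EIIa-ctl heart, but after scaling to library size EIIa-tg replicate 3 (0.267 CPM) and EIIa-ctl replicate 3 (0.272 CPM) met. The log2 difference in EIIa hearts was 1.71 (95% interval -0.40 to 3.82, adjusted p = 0.224, edgeR). In Myh6 hearts it was -1.37 (-4.09 to 1.35, adjusted p = 0.456), with overlapping groups.

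Lck, the kinase that starts signalling from the receptor, had 0, 20 and 18 counts in the EIIa-ctl and 15, 32 and 17 in the EIIa-tg hearts, against 26, 40 and 47 in the Myh6-ctl and 18, 18 and 22 in the Myh6-tg hearts. The Myh6-tg hearts were close to each other and all below the Myh6-ctl hearts, at 0.397 ± 0.017 against 0.838 ± 0.228 CPM (mean ± SD, n = 3 each). Of all genes tested, 19.6% had every Myh6-tg heart below every Myh6-ctl heart. The fitted log2 difference of -1.07 (SE 0.53) had an adjusted p of 0.201 (edgeR). In the EIIa hearts the groups overlapped and the log2 difference was 0.47 (adjusted p = 0.768).

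Cd2 had 11, 14 and 12 counts in the EIIa-ctl and 6, 16 and 3 in the EIIa-tg hearts, against 20, 20 and 53 in the Myh6-ctl and 8, 15 and 6 in the Myh6-tg hearts. Here too every Myh6-tg heart was below every Myh6-ctl heart, with 0.203 ± 0.110 against 0.659 ± 0.302 CPM (n = 3 each). This pattern held for 19.6% of all genes tested. The log2 difference was -1.69 (95% interval -3.32 to -0.06), with an adjusted p of 0.134 over all genes (edgeR). In the EIIa hearts it was -0.79 (adjusted p = 0.459), and the groups overlapped.

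The granzymes had the largest fitted differences between the models among the 10 genes. Gzma had 11, 10 and 8 counts in the EIIa-ctl and 22, 39 and 45 in the EIIa-tg hearts, which is 0.243 ± 0.023 against 0.773 ± 0.230 CPM (n = 3 each), so the groups did not overlap. It had 22, 20 and 37 counts in the Myh6-ctl and 18, 0 and 2 in the Myh6-tg hearts, which is 0.572 ± 0.113 against 0.141 ± 0.212 CPM, again without overlap but in the other direction. The smallest gap was that of Myh6-tg replicate 1 (0.384 CPM) to Myh6-ctl replicate 1 (0.498 CPM). Of all genes tested, 20.3% had every EIIa-tg heart above every EIIa-ctl heart. Every Myh6-tg heart was below every Myh6-ctl heart for 19.6% of all genes tested.

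Gzma missed the threshold in both models. The log2 difference in EIIa hearts was 1.66 (SE 0.49, 95% interval 0.54 to 2.78), with an adjusted p of 0.0513 by edgeR and 0.0537 by DESeq2. In limma on log2 FPKM it passed, with an adjusted p of 0.022 at a pseudocount of 0.1 and 0.0296 at a pseudocount of 1, and over all alternatives the adjusted p ranged from 0.022 to 0.332. In Myh6 hearts the log2 difference was -2.02 (SE 1.19, 95% interval -4.77 to 0.73, adjusted p = 0.274, edgeR). This value depended on Myh6-tg replicate 1: without it the log2 difference of Gzma was -4.68 (adjusted p = 0.0255, edgeR). That heart was also the 1 Myh6-tg heart with Y-linked counts, so without it the groups no longer held the same mix of sexes. Its cardiomyocyte sum was 32089 CPM, against 12137 and 9202 in replicates 2 and 3. Its macrophage sum was 2574 CPM, against 1211 and 1164. The part of these differences in the call was not tested.

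Gzmb had 8, 0 and 7 counts in the EIIa-ctl and 5, 44 and 19 in the EIIa-tg hearts, against 11, 24 and 8 in the Myh6-ctl and 6, 0 and 0 in the Myh6-tg hearts. EIIa-tg replicates 2 and 3 were above all EIIa-ctl hearts and replicate 1 was not. All Myh6-tg hearts were below all Myh6-ctl hearts, but the last step, from 0.152 CPM in Myh6-ctl replicate 3 to 0.128 CPM in Myh6-tg replicate 1, is smaller than 3 counts. Gzmb was below the filter in both models, and the two-sided exact permutation p was 0.3 in the EIIa hearts and 0.1, the smallest possible, in the Myh6 hearts. Without Myh6-tg replicate 1, Gzmb passed the filter and the test in the Myh6 hearts (log2 difference -7.00, adjusted p = 0.0359, edgeR). Both remaining Myh6-tg hearts were at 0 counts, so that this fitted size depends on the prior count. The limits given for Gzma without that heart, among them the unequal mix of sexes, hold here too.

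Nkg7 had a correlation near 0 with both granzymes over the 12 hearts (r = 0.03 with Gzma and 0.01 with Gzmb). It had 14, 26 and 9 counts in the EIIa-ctl and 18, 41 and 16 in the EIIa-tg hearts, against 4, 36 and 79 in the Myh6-ctl and 7, 34 and 18 in the Myh6-tg hearts. The spread within Myh6-ctl hearts was the widest of the 10 genes relative to their level, and groups overlapped in both models. The log2 differences were 0.38 in EIIa hearts (adjusted p = 0.686) and -1.04 in Myh6 hearts (adjusted p = 0.505, edgeR).

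Over the EIIa comparison, 6 of the 10 genes were tested (Cd4, Cd8a, Cd2, Lck, Gzma and Nkg7) and 0 were called at an adjusted p under 0.05 by edgeR or DESeq2, against 17% of the 14908 genes tested by edgeR. Gzma was the 1 gene of the 6 at an unadjusted p under 0.05. The log2 difference was above 0 for 4 and below 0 for 2, with a median of 0.43 against 0.02 over all genes tested. Single hearts moved this median, from 0.05 without EIIa-tg replicate 2, with 3 genes on either side of 0, and 0.22 without EIIa-ctl replicate 1 to 0.84 without EIIa-ctl replicate 3 and 0.94 without EIIa-ctl replicate 2. Gzma was the 1 gene of the 10 with every transgenic heart above every control heart, which held for 20.3% of all genes tested. The filter keeps a sparse gene mostly where 1 group is high, so these counts and medians describe the genes that passed and support no direction. Without the filter all 10 genes had a value, 8 above and 2 below 0, with a median of 0.58.

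Over the Myh6 comparison, 9 genes were tested, all but Gzmb, and 0 were called by edgeR or DESeq2, against 18.3% of 15298 genes tested by edgeR. Cd2 was the 1 gene at an unadjusted p under 0.05. The log2 difference was below 0 for 8 and above 0 for Cd4 alone, with a median of -1.04 against 0.03 over all genes. With mt- genes left out the median was -1.07. Cd2, Lck, Gzma and Gzmb, the last of which was not tested, had every transgenic heart below every control heart, so 3 of the 9 genes tested did, against 19.6% of all genes tested. As in the EIIa comparison, the filter keeps a sparse gene mostly where 1 group is high. These counts and medians therefore support no direction. Without the filter 1 of the 10 genes was above and 9 below 0, with a median of -1.06.

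The median moved with single hearts. Myh6-ctl replicate 3 had 522 counts over the 10 genes, against 117 to 279 in all other hearts, and also the highest Ptprc (22.8 CPM). Without it the median log2 difference of the 9 genes was -0.72, and without Myh6-tg replicate 1, which had the fewest CD3 counts, the median of the 10 genes then tested was -0.72. In the other direction, the median was -1.60 over 10 genes without Myh6-tg replicate 2 and -1.27 over 9 without Myh6-ctl replicate 1.

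**Figure D2:**
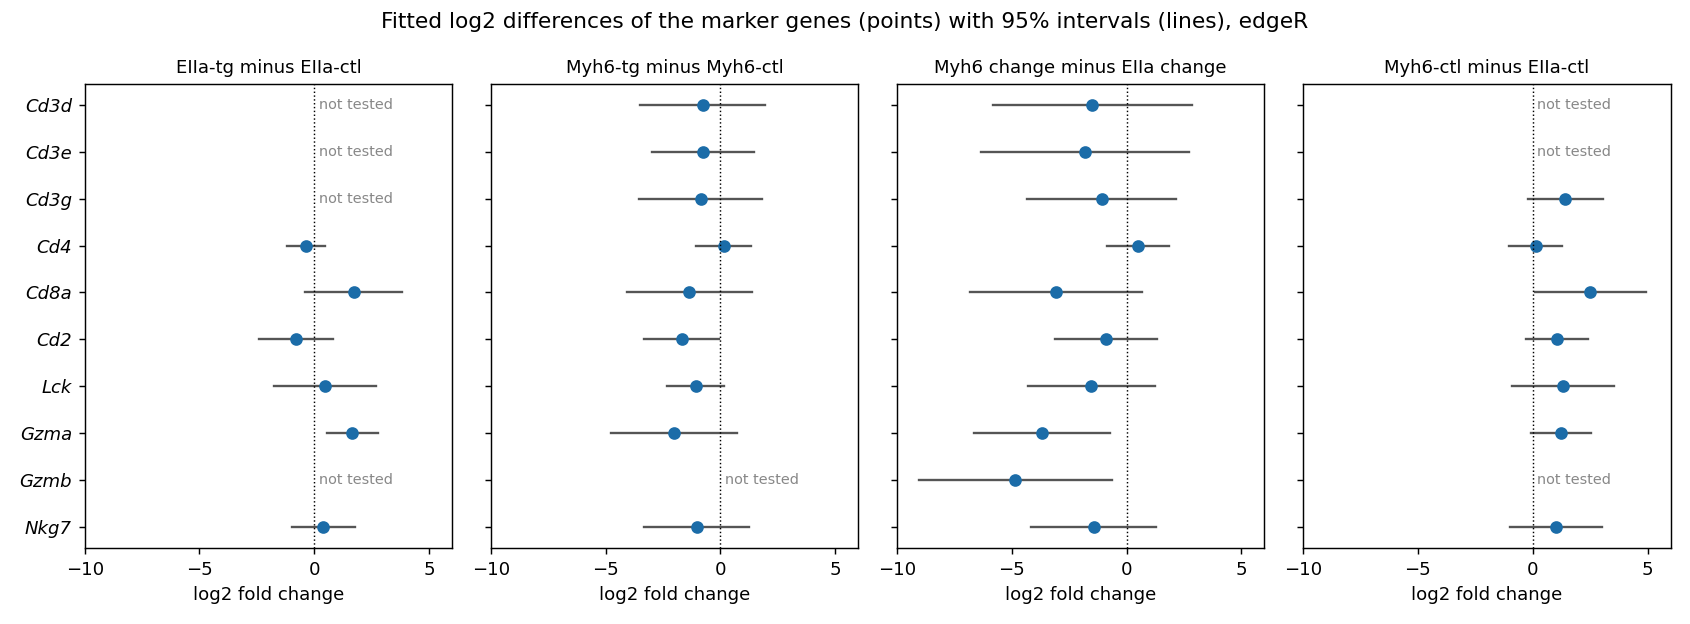
Fitted log2 differences of the 10 genes (points) with their 95% intervals (lines) from edgeR, in 4 panels for EIIa-tg minus EIIa-ctl, Myh6-tg minus Myh6-ctl, the Myh6 change minus the EIIa change, and Myh6-ctl minus EIIa-ctl. Genes below the filter are marked as not tested; the interval of Gzma in the EIIa panel spans 0.54 to 2.78 and most other intervals cross 0.

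Whether the change in transgenic hearts differed between the models was tested in 1 fit of all 12 hearts. All 10 genes were tested and 0 were called by edgeR or DESeq2, against 3.92% of 15929 genes by edgeR, and 2 had an unadjusted p under 0.05. These were Gzma, with a Myh6 change minus EIIa change of -3.67 (SE 1.36, 95% interval -6.65 to -0.70, adjusted p = 0.161), and Gzmb, with -4.84 (SE 1.92, -9.02 to -0.66, adjusted p = 0.189, edgeR). The difference was below 0 for 9 of the 10 genes and above 0 for Cd4, with a median of -1.51 against -0.04 over all genes, which was -2.31 without EIIa-ctl replicate 3. DESeq2 gave Gzma an adjusted p of 0.0501 here, and limma on log2 FPKM called it (adjusted p = 0.04 and 0.0341 at pseudocounts of 0.1 and 1). Without Myh6-tg replicate 1 both granzymes were called, Gzma at -6.33 (adjusted p = 0.00685) and Gzmb at -8.83 (adjusted p = 0.0428, edgeR). In that fit the Myh6-tg group again lacked its heart with Y-linked counts.

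Granzyme and CD3 sums ranked the hearts differently. Gzma and Gzmb summed to 0.367 ± 0.093 CPM in the EIIa-ctl and 1.25 ± 0.52 in the EIIa-tg hearts, against 0.913 ± 0.203 in the Myh6-ctl and 0.183 ± 0.285 in the Myh6-tg hearts (n = 3 each). The CD3 genes summed to 0.328 ± 0.210, 0.493 ± 0.196, 1.29 ± 0.57 and 0.736 ± 0.601 CPM in the same order. EIIa-tg replicate 2 had the most granzyme counts of any heart (83) and 15 CD3 counts. Myh6-tg replicate 1 had 24 granzyme and 2 CD3 counts, whereas replicates 2 and 3 of that group had 0 and 2 granzyme counts beside 51 and 56 CD3 counts.

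**Figure D3:**
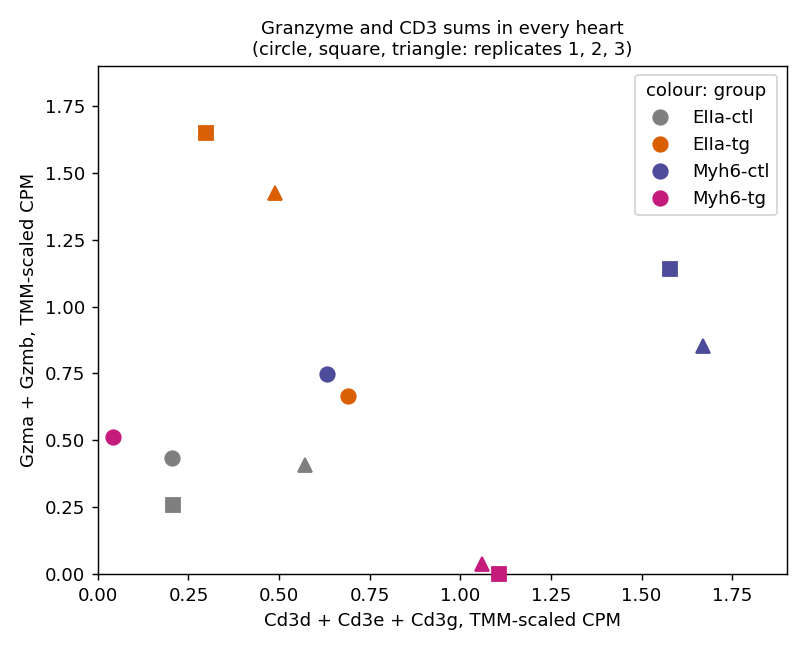
Sum of Gzma and Gzmb (vertical axis) against the sum of Cd3d, Cd3e and Cd3g (horizontal axis) in each of the 12 hearts, both in TMM-scaled CPM, with colours for groups and symbols for replicates. Myh6-tg replicates 2 and 3 lie at granzyme sums of 0 and 0.0378 CPM with CD3 sums above 1 CPM, and EIIa-tg replicates 2 and 3 have the highest granzyme sums.

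Over the 12 hearts, which share groups and library depth, Pearson's r of log2 CPM is given as a description. It was highest for Gzma and Gzmb (0.78), then for Cd3d and Cd3g (0.70), Cd3d and Cd8a (0.69) and Cd3g and Cd8a (0.68), and lowest for Cd4 and Gzma (-0.41). The genes outside the 10 whose log2 CPM followed the mean of the 10 most closely were Rttn (r = 0.90), Hsp90ab1 (0.88), Tsga10 (0.87), Ccl12 (0.86), Amy1 (0.85), P4ha1 (0.84), Plekhf1 (0.83) and Slc17a7 (0.82), chosen from 13099 genes of at least 1 CPM on average. Of these, Ccl12 encodes a chemokine, Hsp90ab1 a chaperone and P4ha1 a collagen-modifying enzyme.

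The controls of both models were also compared, which joins age, Cre line and oil injection in 1 contrast. All 7 genes tested had values above 0 for Myh6-ctl minus EIIa-ctl hearts, with a median log2 difference of 1.23 against 0.02 over all genes, but 0 were called by edgeR or DESeq2. Here too the filter keeps a sparse gene mostly where 1 group is high, so these values support no direction. Without the filter all 10 genes were above 0, with a median of 1.36. At 0.0334% called among 14990 genes by edgeR, few genes of any kind passed in this comparison. Cd8a was the 1 gene at an unadjusted p under 0.05, with a log2 difference of 2.51 (95% interval 0.11 to 4.92, adjusted p = 0.421, edgeR). Cd3g, Cd2, Lck and Gzma had every Myh6-ctl heart above every EIIa-ctl heart, which held for 8.72% of all genes tested. Without Myh6-ctl replicate 3 the median over the 8 genes then tested was 0.91, with 7 above 0. Cd4 differed least, with a log2 difference of 0.13 (-1.01 to 1.27, adjusted p = 0.955). The red cell genes, a measure of blood left in the tissue, summed to 1257 to 2140 CPM in the EIIa-ctl and 167 to 1059 in the EIIa-tg hearts, against 4342 to 6795 in the Myh6-ctl and 1548 to 2842 in the Myh6-tg hearts. This sum was thus lower in each transgenic group and highest in Myh6-ctl hearts, and its part in the marker levels was not tested.

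Ptprc, which encodes the CD45 protein of all leukocytes, was at 9.31 ± 1.35 CPM in the EIIa-ctl and 13.6 ± 1.6 in the EIIa-tg hearts, against 16.2 ± 5.7 in the Myh6-ctl and 14.4 ± 4.2 in the Myh6-tg hearts (n = 3 each). Relative to it, the CD3 sum was 3.81% ± 3.06 in the EIIa-ctl and 3.72% ± 1.85 in the EIIa-tg hearts, against 8.05% ± 3.37 in the Myh6-ctl and 6.08% ± 5.08 in the Myh6-tg hearts. These shares overlapped between control and transgenic hearts in both models, with Myh6-tg hearts spread from 0.221% to 9.31%. All 10 genes summed to 37.6% ± 15.1, 33.0% ± 6.5, 42.0% ± 8.7 and 30.5% ± 14.9 of Ptprc, which also overlapped.

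Genes of leukocytes in general and of macrophages were measured beside the 10 genes. Of 8 pan-leukocyte genes, 7 were higher in EIIa-tg hearts, where 17% of all genes were called in either direction, among them Ptprc (log2 difference 0.55, adjusted p = 0.0451, edgeR). Of 12 macrophage genes, 10 were higher, among them Adgre1 (1.04, adjusted p = 0.0221) and Csf1r (0.55, adjusted p = 0.0493), with list medians of 0.89 and 0.87. These calls depended on which hearts were included. With replicate 1 of either EIIa group left out edgeR called 0 genes of the whole table, and without EIIa-ctl replicate 3 it called 1. All 8 and all 12 genes stayed above 0 in these fits. Without EIIa-ctl replicate 2 edgeR still called 7 of the 8 and 10 of the 12, and without EIIa-tg replicate 2 it called 6 and 9. Without EIIa-tg replicate 3 it called 133 genes in all, 1 of the 8 and 0 of the 12, and in 1 fit of all 12 hearts it also called 1 and 0. With the replicate number as a block (the replicate block) it called 0 and 0, and with Y-linked counts as a covariate 6 and 9. Whether these lists differed from the T cell genes was not tested. In the Myh6 hearts, where 18.3% of all genes were called, 1 pan-leukocyte gene was lower, Coro1a, an actin-binding protein of leukocytes (-0.66, adjusted p = 0.0411), a call lost without Myh6-ctl replicate 1 or 3 or Myh6-tg replicate 2 or 3 and without the filter. No macrophage gene was called there by edgeR (0 of 12, median 0.58), while DESeq2 called 2 higher and edgeR in 1 fit of all 12 hearts called 4 higher. Limma on log2 FPKM called 7 and 6 of them higher at pseudocounts of 0.1 and 1, a scale on which the median of all genes was at 0.40 and 0.27.

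**Figure D4:**
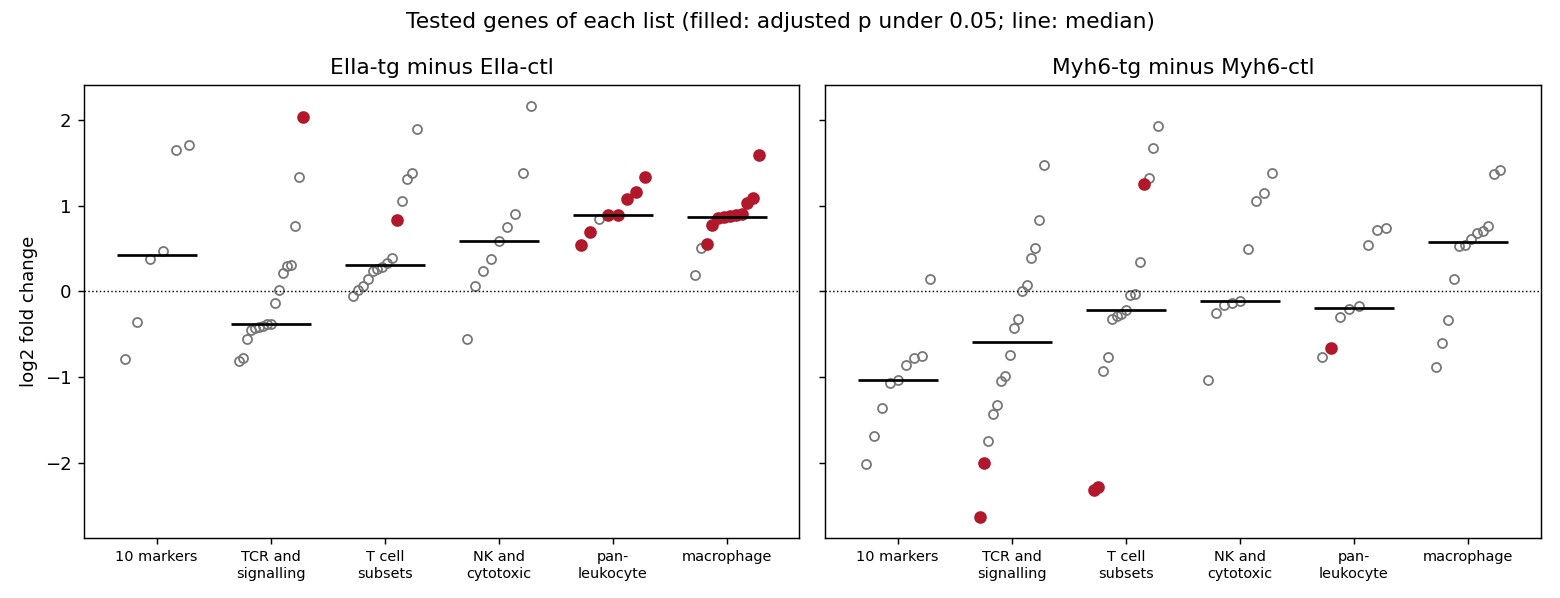
Fitted log2 differences of the tested genes of 6 lists in EIIa-tg against EIIa-ctl hearts (left) and Myh6-tg against Myh6-ctl hearts (right). Each circle is a gene, filled where the adjusted p is under 0.05 (edgeR), and lines are list medians; filled circles are most frequent in the pan-leukocyte and macrophage lists of the EIIa panel, with 7 of 8 and 10 of 12.

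Other genes of T cell receptor signalling gave 1 call in the EIIa and 2 in the Myh6 hearts. In the EIIa hearts 1 of 17 tested was higher and 0 lower, against 17% of all genes called, namely Il7r, the receptor for interleukin-7, with 15, 9 and 28 counts in the EIIa-ctl and 91, 57 and 96 in the EIIa-tg hearts (log2 difference 2.04, adjusted p = 0.0365, edgeR). The median of this list was -0.37, against 0.02 over all genes. In the Myh6 hearts 0 of 16 were higher and 2 lower, against 18.3% of all genes called, with a median of -0.58 against 0.03. Prkcq, a protein kinase C of T cells that muscle also makes, fell from 241, 194 and 242 counts in Myh6-ctl to 67, 60 and 54 in Myh6-tg hearts (adjusted p = 0.00718, edgeR). Bcl11b, a transcription factor of T cell identity, fell from 41, 27 and 37 to 5, 5 and 8 counts (-2.64, adjusted p = 0.0241). DESeq2 called 6 genes of this list lower and edgeR in 1 fit of all 12 hearts 5, and leaving out any Myh6 heart but Myh6-tg replicate 1 left 1 of the edgeR calls. The Il7r call was lost with any EIIa heart but EIIa-tg replicate 2 left out and in 1 fit of all 12 hearts. It was also lost with the replicate block and with Y-linked counts as a covariate. Trac, Trbc1, Trbc2 and Trdc, the constant segments of the receptor, were not found by symbol in the count table and so were not analysed here.

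Of the T cell subset genes, 1 of 14 was higher in EIIa-tg hearts and, in Myh6-tg hearts, 1 of 15 was higher and 2 lower, against 17% and 18.3% of all genes called. Cd44, an adhesion receptor of activated T cells and of many other cells, was the higher gene in both, at 0.83 (adjusted p = 0.0299) and 1.26 (adjusted p = 0.0169, edgeR). In EIIa hearts it lost the call without EIIa-ctl replicate 1 or 3 or EIIa-tg replicate 1 or 3. It also lost it there in 1 fit of all 12 hearts and with the replicate block. In Myh6 hearts it lost the call without Myh6-tg replicate 2 or 3. In Myh6-tg hearts Ctla4, an inhibitory receptor, fell from 65, 69 and 44 counts to 12, 18 and 9 (-2.31, adjusted p = 0.0349). Il2ra, a chain of the interleukin-2 receptor, fell from 101, 163 and 197 to 9, 46 and 48 counts (-2.28, adjusted p = 0.0416). Both lost the call when any 1 Myh6 heart other than Myh6-tg replicate 1 was left out. In Myh6-ctl hearts their mean counts (59.3 and 154) were above those of the CD3 genes (16.3 to 21.7), and the share from T cells was not tested. Of the 15 genes 5 were above and 10 below 0 in Myh6 hearts. Lag3 (1.68), Tigit (1.94) and Pdcd1 (1.32) were above 0 without a call by edgeR, and Foxp3 was at -0.28.

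Of 22 further genes of NK cells and cytotoxic effectors, 9 were tested in each model, not the same 9, and 0 were called by edgeR. Their medians were 0.59 in EIIa and -0.11 in Myh6 hearts, against 0.02 and 0.03 over all genes. Without the filter 21 had a value, 19 above and 2 below 0 in EIIa hearts and 5 above and 16 below 0 in Myh6 hearts. DESeq2 called 0 of them in EIIa and 2 lower in Myh6 hearts. Prf1, which encodes the pore-forming perforin, had 0, 10 and 30 counts in the EIIa-ctl and 21, 26 and 34 in the EIIa-tg hearts, against 2, 19 and 19 in the Myh6-ctl and 4, 4 and 2 in the Myh6-tg hearts. Ncr1, an activating receptor of NK cells, had 0, 5 and 2 counts in the EIIa-ctl and 0, 12 and 8 in the EIIa-tg hearts, against 0, 9 and 4 in the Myh6-ctl and 0, 0 and 2 in the Myh6-tg hearts. In both genes the groups overlapped in each model.

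Markers of other lymphoid tissue and cells were measured beside these genes. Rag1, the recombinase of developing lymphocytes, had at most 7 counts in any heart, and the 4 thymocyte genes summed to at most 0.624 CPM. Ccl21a, a chemokine of lymph node stroma and lymphatic vessels, was at 30.2 ± 7.0 CPM in the EIIa-ctl and 40.1 ± 10.4 in the EIIa-tg hearts, against 44.6 ± 24.9 in the Myh6-ctl and 13.8 ± 8.3 in the Myh6-tg hearts. Among B cell genes, 0 of 7 were called in EIIa hearts and 1 was lower in Myh6-tg hearts, Ms4a1, which fell from 17 to 24 counts in Myh6-ctl to 0 to 3 (log2 difference -4.31, adjusted p = 0.0399, edgeR), a call lost with any 1 Myh6 heart left out, with the replicate block or without the filter. Siglech and Xcr1, dendritic cell genes, and Mcpt4, a mast cell protease, had at most 35, 80 and 149 counts. The part of such cells in the levels of the 10 genes was not tested.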

How the data were processed

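Heart RNA of 12 mice was sequenced by the authors as paired reads and mapped to GRCm38 with Hisat2; the submitters' processing notes list HISAT2 2.0.4, StringTie 2.2.1, DESeq2 and the builds mm10 and GRCm39. The authors deposited whole-number counts per gene without normalization, and FPKM, fragments scaled by transcript length and library size. The counting program's strand setting is not given in the sources used here. Counts were filtered with filterByExpr, scaled by TMM and tested with the quasi-likelihood test of edgeR 4.0.16 in R 4.3.3 on the whole table, with Benjamini-Hochberg adjustment and a threshold of 0.05. FPKM values served for levels per length and for limma 3.58.1. Log2 CPM used a prior count of 2, and 95% intervals came from the fitted standard errors. The two-sided exact permutation test was used for genes below the filter. Gene positions come from GENCODE M21. The tests were tested on simulated data. Figures were drawn with matplotlib 3.10.9.

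The 10 genes and all lists were chosen with earlier results of these data known. Named genes were the 10, up to 3 called genes per lymphocyte list, fixed markers and the 8 most correlated genes. Coro1a, Lag3, Tigit, Pdcd1, Foxp3 and Trdc were also named, outside this rule. Values of 1 fixed marker are not reported here. Replicate numbers in the titles do not name a shared litter. Same-numbered Myh6 hearts deviated together from their group means (r = 0.28, 0.18 and 0.18), and same-numbered EIIa hearts did not (0.07, -0.08 and -0.08). Replicate 1 was also the heart with Y-linked counts in each group, and the part of sex in these correlations was not tested. The main tests used no pairing, and the replicate block was run as an alternative in every comparison. Alternatives were DESeq2 1.42.0, RLE factors, other filters, 1 fit of all hearts, the replicate block, mt- genes left out, a Y-linked covariate, limma on log2 FPKM, stricter thresholds and each heart left out. Floors cover counting error only, whereas the 95% intervals also hold the spread between hearts.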

Additional observations from a re-analysis of the deposited data

Results flagged for a closer look

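By the group labels, the Gzma values differed in opposite directions in the models. Every EIIa-tg heart was above every EIIa-ctl heart and every heart labelled Myh6-tg was below every heart labelled Myh6-ctl. Of all genes tested in each comparison, 20.3% had the first pattern and 19.6% the second, and the share with both was not counted. If the Myh6 labels were exchanged, Gzma would be higher in the transgenic hearts of both models. Subtracting its EIIa difference from its Myh6 difference gave -3.67 on the log2 scale, and the test of this difference over all genes gave an adjusted p of 0.161 (edgeR; 0.00685 to 0.295 over the alternatives), so it did not pass.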

How the results depend on the processing

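Of the 4 counts of called genes, that between the controls stayed at 0 under all alternatives. In the EIIa comparison the count rose from 0 to 1 (Gzma) with limma on log2 FPKM at a pseudocount of 0.1 and also 1 at a pseudocount of 1, a scale on which the median of all genes was at 0.20 and 0.13. For the difference between models both limma settings gave 1 (Gzma). With each heart left out the count ranged from 0 to 0 in EIIa hearts, from 0 to 2 in Myh6 hearts and from 0 to 2 for the difference between models, the 2 being Gzma and Gzmb without Myh6-tg replicate 1. DESeq2, RLE factors, 1 fit of all hearts, both filters, mt- genes left out, the Y-linked covariate and the stricter thresholds left every count at 0.

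With the replicate block, which pairs same-numbered hearts, 0 of the 10 genes were called in each comparison, so that the block changed no call among them; over all genes it called 3204 in the Myh6 comparison and 1 in the EIIa comparison, where the numbers do not pair the hearts. Of the values of single genes, 522 kept their direction and side of the threshold, 7 came to pass it and 5 without a call moved. At 0 to 143 counts per gene and heart and 3 hearts a group, the 95% intervals of the tested genes were between 1.64 and 5.50 wide on the log2 scale in the EIIa and Myh6 comparisons; the parts of depth and of the spread between hearts in this width were not told apart.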
